A study of Mus musculus with 18 samples.

Results

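RNA of mouse 5G6GR embryonic stem (ES) cells was measured in 3 libraries primed with oligo(dT) from 10 pg of total RNA (dT) and in 3 rRNA-depleted libraries made from 200 ng (bulk). These 6 of the 18 libraries of the series were chosen by their labels, and the values are estimated read counts summed per gene. All came from purified total RNA of cells grown without feeders on gelatin with fetal calf serum, LIF, puromycin and blasticidin. The 5G6GR line is known for an inducible Gata6 fusion, and no inducer is named in the labels. The dT libraries were made by RT-RamDA, in which displaced cDNA strands are copied again along the template, with a single-stranded DNA kit and 17 PCR cycles. The bulk libraries were depleted of rRNA with RiboErase, primed with random hexamers and given 7 PCR cycles. Input, kit, depletion and cycle number therefore differ together with the primer and cannot be told apart from it. The labels name no separate cultures within a group, and the p-values below thus measure spread between libraries, which may be technical. The comparison asks which RNAs of ES cells were seen in total RNA and missed when reverse transcription began at a poly(A) tail.

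Most mRNAs gain a poly(A) tail after cleavage downstream of a signal such as AATAAA, and oligo(dT) anneals to that tail. Replication-dependent histone mRNAs end in a stem-loop instead, which binds SLBP and is cut with the help of U7 snRNA. Products of RNA polymerase III, small nuclear and nucleolar RNAs, and a few long non-coding RNAs cut by RNase P also have other 3′ ends. Oligo(dT) can also anneal to stretches of A inside an RNA.

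Library totals ran from 9991575 to 10134741 estimated counts with dT and from 9875411 to 10234690 in bulk. Genes with 1 count or more numbered 15980 to 16504 with dT and 25333 to 25833 in bulk. The 3 dT libraries varied more among themselves: the median coefficient of variation over 7822 genes was 0.343 with dT and 0.0716 in bulk, or 0.0409 without bulk replicate 2. No molecular identifiers were used in these PCR libraries, and floors cover counting error only. Summed ES cell markers (8 genes, Pou5f1 and Nanog among them) were at 4475 to 4835 CPM (counts scaled to a common library total) with dT and 3926 to 4752 CPM in bulk. Bulk replicate 2 stood apart by markers of primitive endoderm, the extraembryonic lineage that Gata6 directs. All 9 of these markers were highest there, and their sum was 250.2 to 337 CPM with dT, and 782, 6421 and 722 CPM in bulk replicates 1, 2 and 3. Sox17 and Foxa2 were at 0 in every dT library. The part of that library in the results was not tested, so counts are also given without it.

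Of 15708 genes tested, 1873 were lower with dT (11.9%) and 1084 were higher (6.9%) at an adjusted p under 0.05 (edgeR quasi-likelihood test, Benjamini-Hochberg, 3 libraries against 3). Lower genes were 63.3% of all calls, and 78.1% with library totals alone (2196 lower, 614 higher). Without bulk replicate 2, 916 of 16262 genes (5.63%) were lower and 431 (2.65%) higher. Without bulk replicate 1 these counts were 134 and 223, and without bulk replicate 3 they were 119 and 180. Without dT replicate 1, 2 or 3 they were 3425 and 1605, 3425 and 1664, and 3363 and 1565. The median log2 fold change, dT minus bulk, over all tested genes was -0.19 with TMM scaling and -0.45 with library totals alone, and folds below stand beside that shift. A gene passed the filter if 3 libraries held about 0.997 CPM or more. Of these genes 5914 passed through bulk alone, with at least 1 dT library under that level, which favours a lower value with dT. Among the 9131 genes that passed in both groups, 539 were lower (5.90%) and 952 higher, and the median was 0.16.

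The transcript classes that fill a library differed between dT and bulk. Transcripts annotated as protein_coding took 81.1% ± 0.17 of estimated counts with dT and 68.8% ± 0.60 in bulk (SD, n = 3 each). Those annotated as lincRNA took 1.20% ± 0.032 with dT and 11.9% ± 0.33 in bulk. The misc_RNA class, which holds 7SL and 7SK RNA, took 0.135%, 0.0955% and 0.102% of the dT libraries, against 4.01%, 4.54% and 4.47% of the bulk libraries. The ribozyme class, which holds the RNAs of RNase P and RNase MRP, took 0.00196% ± 0.00045 with dT and 1.07% ± 0.094 in bulk. The snoRNA class took 0.0155% with dT and 0.146% in bulk, and the scaRNA class 0.00169% with dT and 0.0578% in bulk. The 3 dT and the 3 bulk values did not overlap for 21 of the 22 classes tested, with an exact permutation p of 0.1 (two-sided), the smallest that 3 libraries against 3 can give, and 0.105 after adjustment over the classes.

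Single genes carried much of some classes. Gm26917, a locus annotated as lincRNA and listed here with the rRNA loci, held 0.156% of counts with dT and 8.42% in bulk, Gm42418 held 0.540% and 1.36%, and Malat1 held 0.00503% and 0.971%. The lincRNA share without these 3 genes was 0.500% ± 0.017 with dT and 1.12% ± 0.057 in bulk. In protein_coding the reverse was seen: Lars2, the gene of mitochondrial leucyl-tRNA synthetase, took 15.9% of counts with dT and 0.00221% in bulk. Against undepleted low input libraries primed at random, the log2 fold change of Lars2 with dT was only -0.10 (edgeR, adjusted p = 0.0589). Its difference from bulk therefore cannot be told apart from input, kit and rRNA depletion. Protein_coding transcripts other than Lars2, AA474408 and mitochondrial genes held 61.7% ± 0.72 of all counts with dT and 66.4% ± 0.61 in bulk. That total still holds the genes left out, so these shares do not give the order of the groups without them.

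**Figure D1:**
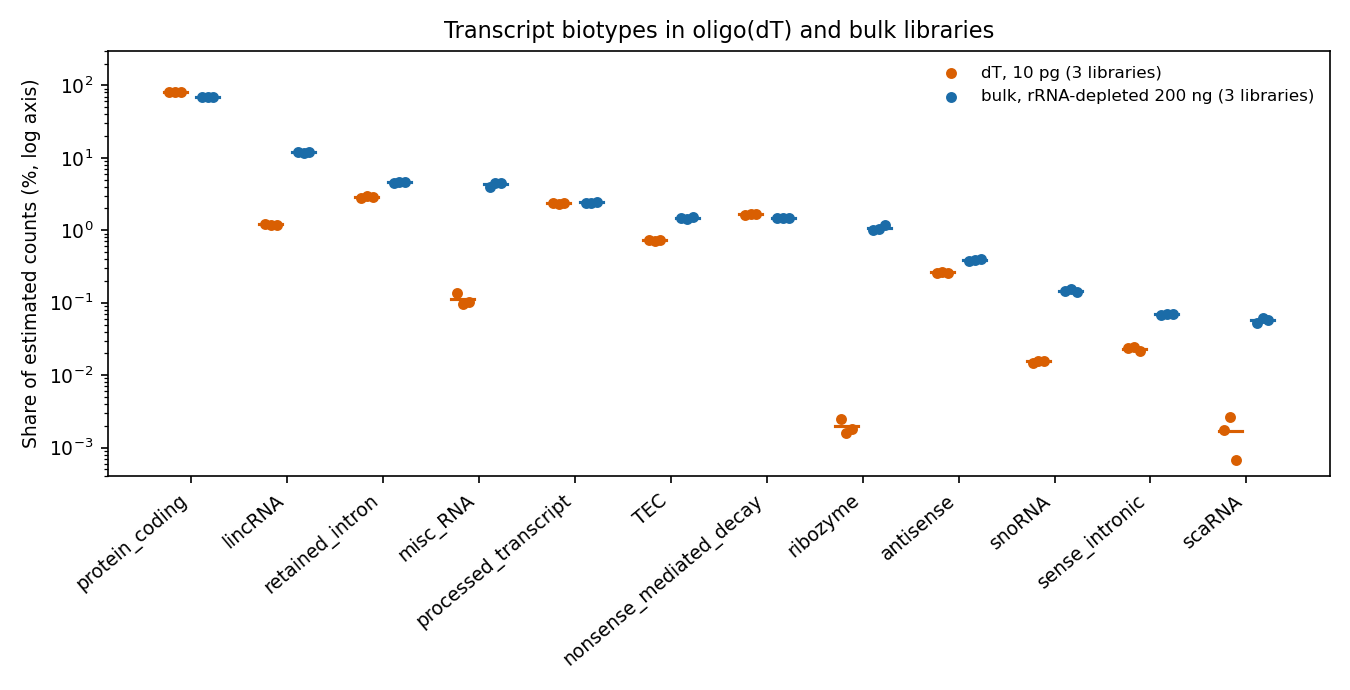
Share of estimated counts (percent, log axis) by transcript class, with 1 point per library and a line at the mean, dT left of bulk in each pair. The ribozyme, scaRNA, misc_RNA, lincRNA and snoRNA points of dT lie far under those of bulk, while the processed_transcript and nonsense_mediated_decay points lie close together.

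Replication-dependent histone genes, which supply the nucleosomes of S phase, were lower with dT almost throughout. Of 68 listed genes 67 had a count and 60 were tested; 52 were lower, against 11.9% lower over all genes. None was higher with edgeR, 1 had a higher level at an unadjusted p under 0.05, and DESeq2 called 1 higher. Only 9 passed the filter in both groups, and 7 of these were lower, with a median log2 fold change of -3.67. Of the 60 tested genes 37 were lower without bulk replicate 2, 23 without bulk replicate 1 and 23 without bulk replicate 3, and between 52 and 57 without one dT library. Their summed level was 472, 533 and 414 CPM of the library total in the dT libraries, against 13035, 12629 and 13381 CPM in bulk. Single histone genes share sequence, so the families were also summed before the fit.

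The H4 family (13 genes) had 34.9, 43.3 and 25.2 TMM-scaled CPM in the dT libraries, against 3143, 3095 and 3377 in bulk, a log2 fold change of -6.54 ± 0.24 (SE; adjusted p = 7.13e-05). The H3 family (12 genes) had 28.3, 44.4 and 11.2 with dT, against 1881, 1813 and 1975 in bulk, or -6.08 ± 0.53 (adjusted p = 0.00194). No dT library came near a bulk library in either family. The H2B family (18 genes) averaged 60.5 ± 17.6 with dT and 2791 ± 87 in bulk (SD, n = 3), a change of -5.53 ± 0.24 (adjusted p = 0.000132). The linker histone family H1 (6 genes) averaged 47.5 ± 6.4 with dT and 1979 ± 29 in bulk, a change of -5.38 ± 0.13 (adjusted p = 1.09e-05). The H2A family (19 genes) was less far under bulk than the other families, at 361, 360.4 and 324.5 with dT, against 2095, 2017 and 2126 in bulk, a change of -2.58 ± 0.079 (adjusted p = 3.43e-05).

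The H2A value rested on Hist1h2ap. Its level was 314.8, 280.8 and 277.9 TMM-scaled CPM in the dT libraries, against 290.1, 282.8 and 288.7 in bulk, and the groups overlapped (log2 fold change 0.02 ± 0.09, adjusted p = 0.92). Hist1h2ap shares 93.4% of its 31-base words with other genes, Hist1h2ao first, whose level was 0 with dT and at most 0.65 in bulk. Without this pair the H2A family averaged 57.6 ± 19.1 with dT and 1791 ± 53 in bulk, and the change was -4.96 ± 0.26 (adjusted p = 0.000291).

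The stem-loops of these mRNAs show what the histone genes share and where Hist1h2ap differs. They were read from GENCODE vM21 transcripts (GRCm38, the same assembly as mm10), 5′ to 3′ on the transcript strand, with the match to the stem-loop pattern in capitals (GG, any 2 bases, CTTTT, any base, AG, any 2 bases, CC).
Hist1h4c, chr13:23698084-23698109, minus strand: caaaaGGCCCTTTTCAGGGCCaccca
Hist1h3b, chr13:23752815-23752840, plus strand: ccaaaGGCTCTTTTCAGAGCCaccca
Hist1h2bg, chr13:23571838-23571863, plus strand: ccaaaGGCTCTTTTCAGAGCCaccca
Hist1h1c, chr13:23739507-23739532, plus strand: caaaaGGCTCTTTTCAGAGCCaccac
Hist1h2ap, chr13:21833027-21833056, minus strand: aaaaaaaaaaaaGGCTCTTTTCAGAGCCat
Hist1h2ao, chr13:21810886-21810915, plus strand: aaaaaaaaaaaaGGCTCTTTTCAGAGCCat
In Hist1h2ap and Hist1h2ao 12 bases of A stand directly before the stem-loop. Among the other 65 histone genes with a sequence, the longest run of A in the transcript had a median of 4 and reached 15 in Hist1h2ac, whose vM21 transcript of 2482 bases is longer than the 476 bases counted here, so that the run may lie outside the counted part. A run of 12 or more is not particular to this pair. It stood in 9.57% of 13136 tested genes with equal deposited and vM21 lengths. The share was 8.88% of those lower with dT and 12.6% of those higher. Malat1, far lower with dT (below), has a run of 12 as well. The part of the A run in the level of Hist1h2ap was not tested.

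Of the 67 histone genes with a sequence 41 held this stem-loop anywhere in the transcript, as did 38 of the 60 tested. Annotated ends differ, so positions from the end were read only where the deposited length and that of vM21 agree. Among 13136 tested genes of that kind, 14 (0.107%) held the stem-loop in the last 100 bases, and all 14 were among the 40 histone genes of that kind. A poly(A) signal (AATAAA or ATTAAA, transcript strand) stood in the last 50 bases of 9 of these 40 (22.5%), against 80.2% of 9295 other protein_coding genes. All 9 were among the 33 histone genes of that kind called lower with dT, and 0 among the 7 not called.

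Genes of each family were followed singly. Hist1h4c, whose transcript of 395 bases in the deposited file is shorter than in vM21, had 0 counts in all dT libraries and 298.8, 307.2 and 322.5 TMM-scaled CPM in bulk, at least 945-fold lower with 3 counts per library as the floor (0.321 to 0.331 TMM-scaled CPM). Hist1h3b had 0 with dT and 231.0, 215.9 and 235.1 in bulk, at least 694-fold lower. Hist1h2bg had 0.66, 0 and 0 with dT, against 634.3, 597.9 and 589.8 in bulk (log2 fold change -11.36 ± 0.70, adjusted p = 0.000457). Hist1h1c, a linker histone with 11.4% shared words, had 3.978, 4.599 and 2.204 with dT, against 429.6, 444.0 and 425.3 in bulk (-6.91 ± 0.29, adjusted p = 0.000126). Hist1h1b, another linker histone, with 3.09% shared words, had 27.5, 22.5 and 30.4 with dT, against 369.5, 318.1 and 334.7 in bulk (-3.67 ± 0.16, adjusted p = 0.000138). Hist1h2bc and Hist1h2ae changed less, by -2.58 ± 0.16 and -2.64 ± 0.25 (adjusted p = 0.000507 and 0.00237).

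Besides Hist1h2ap, 7 tested histone genes were not called, 6 of them with a negative fold change. Hist1h3c had 0, 12.6 and 0 TMM-scaled CPM with dT, against 206.0, 210.2 and 198.9 in bulk (-5.60 ± 1.57, adjusted p = 0.0570), and the groups did not overlap. Hist1h2bm, Hist1h2ak, Hist2h3b, Hist1h2bl and Hist1h2bp had fold changes of -2.73 to -5.44 with adjusted p of 0.0645 to 0.408. Hist1h2an had 3.76, 25.3 and 15.6 with dT, against 1.62, 1.58 and 2.12 in bulk (3.07 ± 0.84, adjusted p = 0.0529).

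Replacement histone genes, which are expressed outside S phase from ordinary polyadenylated mRNAs, did not share this. All 11 passed the filter in both groups, 5 were higher with dT (45.5%, against 6.9% over all genes), 1 was lower, and the median log2 fold change was 0.56. Over all genes that passed in both groups, 952 of 9131 were higher. H3f3a, one of the H3.3 genes, had 840.2, 796.7 and 760.4 TMM-scaled CPM with dT, against 410.9, 309.2 and 366.4 in bulk (1.14 ± 0.12, adjusted p = 0.00388). H2afz, the gene of H2A.Z, averaged 1008 ± 80 with dT and 544.5 ± 42.3 in bulk (0.89 ± 0.099, adjusted p = 0.00446). Both have pseudogene copies and share 79.1% and 77.8% of their words. H3f3b, the other H3.3 gene, with 0.102% shared words, averaged 503 ± 50 with dT and 347 ± 15 in bulk (0.54 ± 0.10, adjusted p = 0.0146), and was not called without bulk replicate 2 (adjusted p = 0.0620) or with library totals alone (0.27).

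The lowest log2 fold change among the 11 replacement genes was -2.42, in a gene that was not called. H2afx was the one replacement gene called lower with dT. It encodes H2A.X, the variant phosphorylated at DNA breaks, and its mRNA is known in 2 forms, one ending at a stem-loop and one polyadenylated. Its level was 123.7, 176.7 and 143.8 TMM-scaled CPM with dT, against 258.8, 241.0 and 279.1 in bulk, with no overlap (-0.81 ± 0.16, adjusted p = 0.0145; adjusted p = 0.0523 without bulk replicate 2). One transcript carries all of its counts in the file, so the 2 forms could not be counted apart. That vM21 transcript holds both elements, the stem-loop with 817 bases after the printed part and the poly(A) signal near the end, whereas H3f3b ends at a signal. This layout is not particular to H2afx. Hist1h1c, which changed by -6.91 ± 0.29, has 835 bases after its printed stem-loop and a signal in the last 50 bases.
H2afx stem-loop, chr9:44335235-44335260, plus strand: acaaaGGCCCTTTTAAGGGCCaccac
H2afx poly(A) signal, chr9:44336037-44336066, plus strand: aattttATTAAAggatcgtttggttttgtt
H3f3b poly(A) signal, chr11:116021981-116022010, minus strand: cttacaAATAAActagtaagtttggagttt

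**Figure D2:**
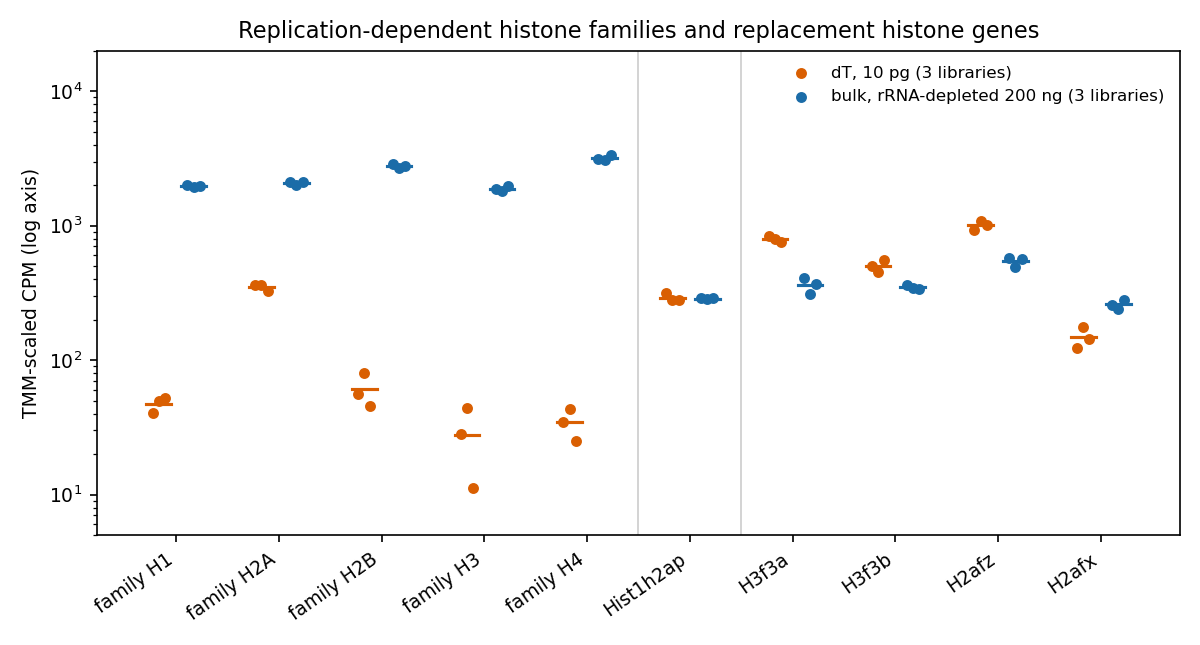
TMM-scaled CPM (log axis) of the 5 replication-dependent histone families, of Hist1h2ap, which is also counted in family H2A, and of 4 replacement histone genes, with 1 point per library and a line at the mean, dT left of bulk in each pair. Every family is lower with dT, Hist1h2ap is level in both groups, H3f3a, H3f3b and H2afz are higher with dT, and H2afx is lower.

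Small non-coding RNAs made by RNA polymerase III, or ending without a tail for other reasons, were also lower. Of 35 listed genes 25 were tested, 17 were lower and 1 higher, against 11.9% lower and 6.9% higher over all tested genes. Among the 9 that passed in both groups 4 were lower and 1 higher, against 5.90% lower over all genes that did. Without bulk replicates 1, 2 or 3 there were 12, 14 and 7 lower. Rpph1, the RNA of RNase P, which trims the 5′ ends of tRNAs, had 0.88, 0.11 and 0 TMM-scaled CPM with dT, against 5736, 5871 and 7282 in bulk (-14.18 ± 0.66, adjusted p = 0.000176). Rmrp, the RNA of RNase MRP, which acts in rRNA processing, had 24.5, 17.3 and 20.1 with dT, against 3457, 3525 and 3430 in bulk (-7.39 ± 0.17, adjusted p = 1.13e-05). Both shared 5.19% or less of their words with other genes.

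Rn7sk, the 7SK RNA that holds the elongation factor P-TEFb, had 405.7, 349.5 and 374.6 TMM-scaled CPM with dT, against 12353, 12353 and 12775 in bulk (-5.05 ± 0.084, adjusted p = 4.16e-06). Merged with 3 near-identical copies it changed by -5.04 ± 0.082. Rn7s1 and Rn7s2, copies of the 7SL RNA of the signal recognition particle, have equal values and share all of their words, and their group with Rn7s6 averaged 769 ± 206 with dT and 27011 ± 2472 in bulk (-5.13 ± 0.22, adjusted p = 0.000192). 7SL and 7SK thus kept some reads with dT, while Terc, the telomerase RNA, had 0 in all dT libraries and 48.2, 39.5 and 48.9 in bulk, at least 139-fold lower. Rprl3, an RNase P RNA-like gene, had 0 with dT and 87.7 ± 10.1 in bulk, at least 268-fold lower. The Y RNA genes Rny1 and Rny3 were at 0 with dT and at 1.67 and 2.83 in bulk, at least 5.11-fold and 8.65-fold lower.

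The last 30 bases of 4 of these RNAs are shown because none holds a poly(A) signal there.
Rpph1, chr14:50807449-50807478, minus strand: ataacccaattcagactactctcccccgcc
Rmrp, chr4:43492788-43492817, minus strand: caaccacacggggctcattctcagcgcggc
Rn7sk, chr9:78175303-78175332, minus strand: ggcgctgcatgtggcagtctgcctttcttt
Terc, chr3:96414437-96414466, minus strand: aagtgcacccggaactcggttctcacaacc
The longest run of A anywhere in them was 2 bases in Rpph1, 3 in Rmrp, 3 in Rn7sk and 5 in Terc, against a median of 6 over all tested genes with a sequence of the same length. Those genes had a median length of 2645 bases, against 271 (Rmrp) to 423 (Terc) here, and length was not allowed for. Genes of class snRNA had a median run of 3, with 12 lower and 14 higher of 40.

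Small nucleolar RNAs, which guide modification of rRNA, and their Cajal body relatives (scaRNAs) had no gene higher with dT by edgeR, 0 at an unadjusted p under 0.05 and 0 by DESeq2. Of 112 tested genes of class snoRNA 46 were lower (41.1%, against 11.9% over all genes), of which 29 without bulk replicate 2, 6 without bulk replicate 1 and 2 without bulk replicate 3, and 66 to 71 without one dT library. Only 8 passed the filter in both groups, and 2 of these were lower. Scarna10 had 0 counts with dT and 185.1, 211.0 and 169.9 TMM-scaled CPM in bulk, at least 576-fold lower. Scarna2 had 12.9, 1.60 and 1.54 with dT, against 281.3, 320.2 and 316.1 in bulk (-5.83 ± 0.91, adjusted p = 0.00968). Snora73a, a U17 snoRNA, had 2.541, 1.497 and 11.57 with dT, against 142.6, 140.0 and 131.7 in bulk (-4.73 ± 0.78, adjusted p = 0.00971). Rnu3a, a U3 gene, was at 0 with dT and at 104.6, 66.8 and 64.6 in bulk, and it shares 99.5% of its words with other U3 copies. It was also at 0 in the low input libraries primed at random, so its absence is not particular to oligo(dT).

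Most host transcripts that carry many of these snoRNAs in their introns were not called. Of 14 tested host genes 3 were lower (21.4%, against 11.9% over all genes) and none higher with edgeR (1 at an unadjusted p under 0.05, 0 by DESeq2), with a median of -0.42. Of the 11 that passed in both groups 2 were lower (18.2%, against 5.90%), with a median of -0.40. Gas5 had 277.0, 337.6 and 342.9 TMM-scaled CPM with dT, against 299.95, 287.62 and 292.95 in bulk, with overlap (0.12 ± 0.11, adjusted p = 0.551). Snhg1 averaged 266 ± 32 with dT and 227 ± 10 in bulk (0.23 ± 0.12, adjusted p = 0.259). Snhg17 and Snhg4 were lower, by -1.03 ± 0.17 and -0.95 ± 0.19 (adjusted p = 0.00968 and 0.0171), and so was Snhg7, whose most abundant transcript is a snoRNA of 139 bases.

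Spliceosomal small nuclear RNAs, which also lack poly(A) tails in textbook accounts, did not move one way. Of 40 tested genes of class snRNA 12 were lower (30%, against 11.9% over all genes) and 14 higher (35%, against 6.9%), and among the 19 that passed in both groups 3 were lower and 11 higher. Rnu1a1, a U1 gene, had 65.9, 41.9 and 49.9 TMM-scaled CPM with dT, against 23.6, 25.3 and 19.7 in bulk (1.20 ± 0.26, adjusted p = 0.0213; adjusted p = 0.0743 without bulk replicate 2). Rnu2-10, a U2 gene, had 1.66, 0.86 and 1.98 with dT, against 17.4, 19.3 and 17.6 in bulk (-3.58 ± 0.59, adjusted p = 0.00968). Both share all of their words with other copies. Rnu12, the U12 gene of the minor spliceosome, shares none and overlapped between the groups, at 11.3, 12.2 and 11.5 with dT, against 11.1, 12.4 and 10.2 in bulk (0.05 ± 0.42, adjusted p = 0.962).

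Long non-coding RNAs that act in the nucleus or come from imprinted loci were lower in part. Of 30 listed genes 27 were tested, 12 were lower (44.4%, against 11.9% over all genes) and none higher with edgeR (0 at an unadjusted p under 0.05, 0 by DESeq2). Among the 15 that passed in both groups 8 were lower (53.3%, against 5.90%), with a median of -0.74. Lower genes numbered 5 without bulk replicate 2, 4 without bulk replicate 1 and 4 without bulk replicate 3, and 14 to 16 without one dT library. Malat1, a nuclear speckle RNA whose mature end is cut by RNase P and closed by a triple helix, had 65.0, 32.0 and 69.3 TMM-scaled CPM with dT, against 8713, 8913 and 9082 in bulk (-7.33 ± 0.36, adjusted p = 0.000225).

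Neat1, the RNA around which paraspeckles form, had 115.7, 80.1 and 70.1 TMM-scaled CPM with dT, against 511.1, 537.1 and 504.7 in bulk (-2.55 ± 0.20, adjusted p = 0.00128). Its transcripts differ in their ends: the short one is polyadenylated and the long one ends as Malat1 does. The long transcript (20771 bases) had 12.8, 8.06 and 33.3 CPM of the library total with dT, against 397.3, 405.6 and 380.1 in bulk. The short transcript had 91.9, 65.8 and 29.9 CPM with dT, against 158.0, 179.7 and 171.1 in bulk. From the group means, the long one made up 22.4% of the gene's estimated counts with dT and 69.9% in bulk, and the short one 77.6% and 30.0%. The dT libraries disagreed: the long transcript was under the short one in replicates 1 and 2 but over it in replicate 3. The transcripts overlap, so these estimates depend on how reads were divided between them, which is not given in the sources used here.

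Sequences at these ends are shown with A-rich tracts and poly(A) signals in capitals.
Malat1 A-rich tract, chr19:5795982-5796011, minus strand: ttccctagctttAAAAAAAAAAAAGCAAAA
Neat1 long transcript, chr19:5824708-5824737, minus strand: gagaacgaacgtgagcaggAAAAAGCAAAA
Neat1 short transcript, chr19:5842307-5842336, minus strand: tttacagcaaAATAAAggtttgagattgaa
The Malat1 tract stands 292 bases before the annotated end of the transcript, and both Neat1 sequences are the last bases of their transcript.

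Kcnq1ot1, an antisense RNA that silences imprinted genes in cis, had 64.1, 59.0 and 85.1 TMM-scaled CPM with dT, against 370.0, 425.8 and 405.7 in bulk (-2.53 ± 0.17, adjusted p = 0.000610). Rian, from the imprinted Dlk1-Dio3 region, had 65.4, 28.1 and 42.0 with dT, against 343.8, 298.2 and 329.3 in bulk (-2.84 ± 0.32, adjusted p = 0.00439). Meg3, from the same region, had 114.6, 124.1 and 71.8 with dT, against 194.9, 192.7 and 231.3 in bulk (-0.995 ± 0.22, adjusted p = 0.0267; adjusted p = 0.0824 without bulk replicate 2). Xist, the RNA of X inactivation, had 2.98, 0 and 2.20 with dT, against 61.6, 72.6 and 77.9 in bulk (-5.35 ± 1.06, adjusted p = 0.0166). Its antisense partner Tsix changed by -1.36 ± 0.29 (adjusted p = 0.0202), and without a stated strand of counting reads of the 2 genes cannot be told apart. Firre, Pvt1, Jpx, Miat and Lncpint were lower as well. Tug1 (141.0 to 186.8 with dT and 172.1 to 173.0 in bulk, -0.13 ± 0.14, adjusted p = 0.617) and Lncenc1 (278.2 to 333.9 with dT and 292.8 to 356.1 in bulk, -0.16 ± 0.12, adjusted p = 0.476) overlapped between the groups.

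**Figure D3:**
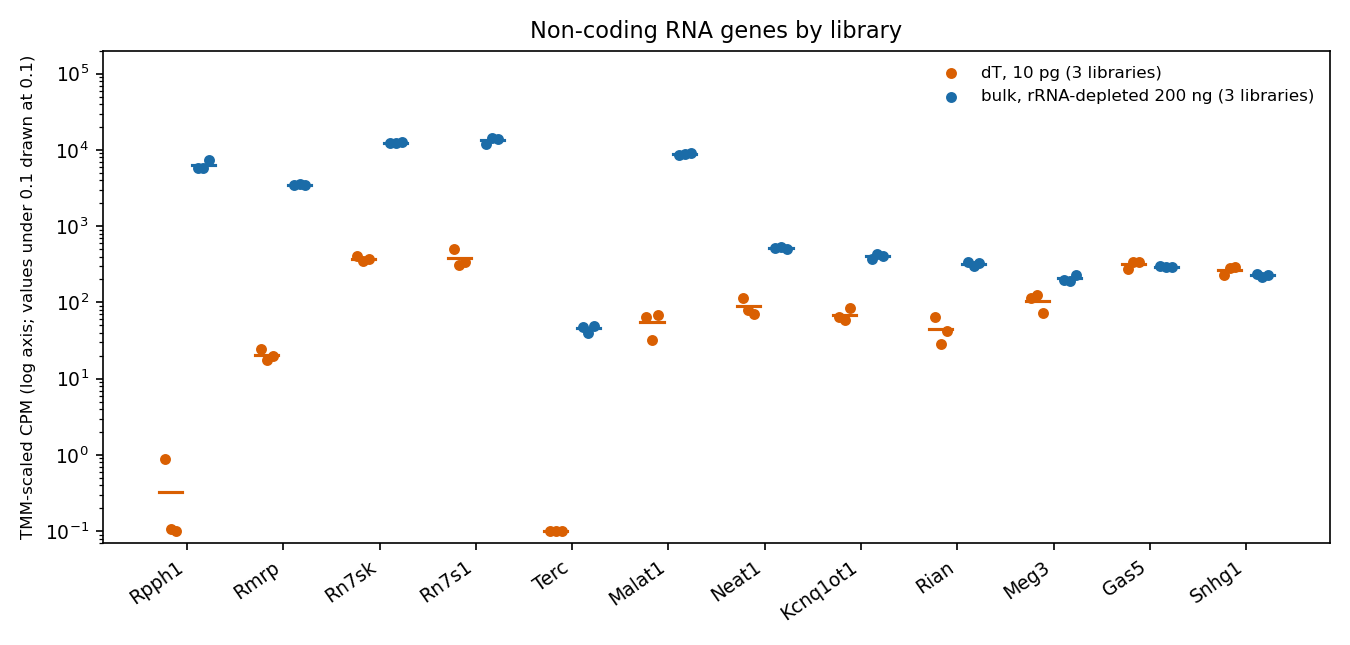
TMM-scaled CPM (log axis, values under 0.1 drawn at 0.1) of 12 non-coding RNA genes, with 1 point per library and a line at the mean, dT left of bulk in each pair. Rpph1 and Terc lie near or at the bottom with dT, Rmrp, Rn7sk, Rn7s1 and Malat1 lie far under bulk, and Gas5 and Snhg1 overlap with bulk.

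Classes of less well described transcripts were read against the 11.9% of all tested genes that were lower and the 5.90% among genes that passed in both groups. Of 573 lincRNA genes 120 were lower and 3 higher, and of the 136 that passed in both groups 23 were lower (16.9%). Of 799 genes annotated as TEC, a GENCODE class of loci that await experiment, 261 were lower and 13 higher, and of the 115 that passed in both groups 18 were lower (15.7%). Of 405 antisense genes 111 were lower and 6 higher, of which 6 of 53 in both groups (11.3%), and of 89 sense_intronic genes 32 were lower and 1 higher, of which 1 of 13. Without bulk replicates 1, 2 or 3 the lower genes numbered 7, 60 and 7 for lincRNA, 5, 105 and 5 for TEC, and 5, 67 and 3 for antisense. Without one dT library they numbered 207 to 222, 401 to 430 and 203 to 222. Gm20628, an antisense gene at 0 with dT and at 177 ± 14 TMM-scaled CPM in bulk, spans the protein-coding Hist2h2bb on the other strand, which was also at 0 with dT, and the reads of the 2 genes cannot be told apart.

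Genes whose most abundant transcript was of class retained_intron were not lower more often than genes in general: 58 of 493 were lower (11.8%) and 8 higher, and 8 of the 182 that passed in both groups were lower (4.40%). Within the transcripts of coding genes, though, retained_intron transcripts took 4.14% ± 0.067 of counts with dT and 6.06% ± 0.19 in bulk (SD, n = 3), leaving out mitochondrial genes, Lars2 and AA474408. Over the same 21938 genes protein_coding transcripts took 90.9% with dT and 89.8% in bulk, processed_transcript 2.60% and 2.29%, and nonsense_mediated_decay 2.34% and 1.89%.

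**Figure D4:**
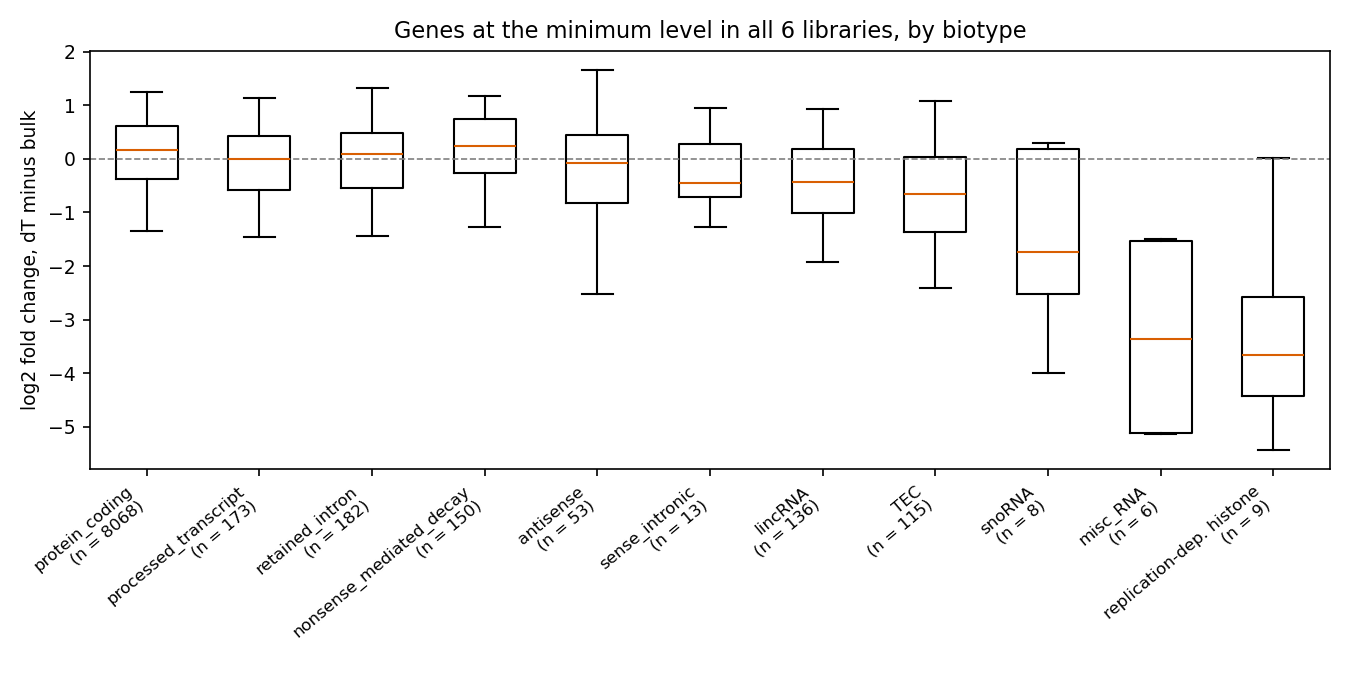
Log2 fold change, dT minus bulk, of genes that passed the filter in both groups, by the class of their most abundant transcript. Boxes span the quartiles with the median in orange, whiskers reach the 5th and 95th percentiles of genes, n is the number of genes, and the dashed line marks 0. The medians of protein_coding (0.17), retained_intron (0.09) and processed_transcript (0.00) lie near 0, those of lincRNA (-0.42) and TEC (-0.66) under it, and those of misc_RNA (-3.36) and the histones (-3.67) far under it, from 6 and 9 genes.

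Poly(A) signals near the annotated end differed between classes more than between called and uncalled genes of a class. AATAAA or ATTAAA stood in the last 50 bases in 67.6% of the 13136 tested genes of matching length, in 53.1% of those lower with dT, in 67.5% of those higher and in 69.9% of those not called. By class the share was 51.1% for lincRNA, 48.6% for antisense and 26.9% for TEC, and it was 0 of 112 for snoRNA, 0 of 40 for snRNA and 3 of 34 for misc_RNA. Within lincRNA it was 47.3% among lower and 52.5% among uncalled genes, within TEC 22.4% and 29.0%, and within protein_coding other than histones 79.0% and 80.0%. An annotated end need not be the end used in these cells, and no test was made of these shares.

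Some genes well seen in bulk had no count at all with dT. Of 9311 genes at 10 CPM or more on average in bulk, 71 (0.763%) had 0 counts in all 3 dT libraries, which allows up to 0.296 to 0.300 CPM of the library total. They included 15 of 29 snoRNA and scaRNA genes, 10 of 57 replication-dependent histone genes, 2 of 15 misc_RNA and ribozyme genes, 10 of 142 pseudogenes and 27 of 8215 other protein_coding genes (0.329%). Of the 71 genes 38 had under 10% shared words. The U3 copies Rnu3b1, Rnu3b2, Rnu3b3 and Rnu3b4 share all of their words and have equal values (44.1 CPM in bulk). Gm28437 and Gm7336 share all of theirs too, mt-Co3 and Gapdh first, and such a 0 may depend on how reads were divided. All 10 of the histone genes had a count in every library of the same low input method primed at random (6 libraries with N6 or NSR primers), as did 34 of the 71. Another 6 of the 71 had no count in any of these libraries, Rnu3a and Snora74a among them. Random-primed levels of the 10 histone genes were under bulk, from 1.19 against 124 CPM (Hist1h4j) to 52.7 against 64.9 (Hist1h2ai). Hist1h4c had 8.67 CPM with random primers against 337 in bulk, Scarna10 9.15 against 206, Rprl3 5.71 against 95.6 and Terc 4.55 against 49.7. Part of the folds against bulk given above was thus also seen with random primers. With bulk replicates 1 and 3 only, 56 genes met the rule, among them the same number of histone (10) and of snoRNA and scaRNA genes (15) and 12 other protein_coding genes. Of the 27 other protein_coding genes 13 were more than 3 times as high in bulk replicate 2 as in the mean of the other two, Sox17 and Fst among them. Without dT replicate 1, 2 or 3 there were 124, 113 and 127 such genes.

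The random-primed libraries share input, kit and cycle number with dT, and they share the dT libraries with the comparison above, so the values stand side by side only. In a fit of dT against the 6 random-primed libraries 1028 of 13955 genes were lower (7.37%) and 975 higher (6.99%). The log2 fold change of dT over random primers was -3.85 ± 0.21 for family H4, -4.76 ± 0.41 for H3, -4.79 ± 0.19 for H2B, -4.88 ± 0.13 for H1 and -1.38 ± 0.13 for H2A, each with an adjusted p of 2.15e-05 or less. It was -11.35 for Rpph1, -5.92 for Rmrp, -4.06 for Rn7sk, -6.90 for Malat1 and -2.17 for Neat1, all called. Scarna2 (-1.15, adjusted p = 0.449) and Hist1h2ae (-1.08, adjusted p = 0.136) were not called there. Lower were 43 of 59 replication-dependent histone genes, 9 of 21 listed small RNAs, 12 of 55 snoRNAs and scaRNAs and 8 of 23 listed long non-coding RNAs. Higher was 1 of these histone genes and none of the others. H2afx had the other sign there, 0.83 (adjusted p = 0.0190). Of 30 snRNA genes tested there with edgeR none was lower (0 at an unadjusted p under 0.05) and 1 was higher.

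Among ordinary coding genes the fold change moved with transcript length. For 719 protein_coding genes with a transcript of 500 to 1000 bases, histones left out, the median was 0.53, with 3.89% lower and 22.9% higher. It was 0.33 at 1000 to 2000 bases, 0.07 at 2000 to 4000 and -0.45 at 4000 to 8000, and for 581 genes over 8000 bases it was -1.06, with 27.4% lower and 0.344% higher. Without bulk replicate 2 these medians were 0.57 at 500 to 1000 and -1.01 over 8000 bases. Relative to the random-primed libraries of the same input and kit they were 1.44 and -1.19. Dppa5a, an ES cell RNA-binding protein gene with a transcript of 619 bases, had 1650, 1674 and 1562 TMM-scaled CPM with dT, against 984, 931 and 901 in bulk (0.80 ± 0.071, adjusted p = 0.00201). Tet1, the 5-methylcytosine dioxygenase gene with one of 14369 bases, had 354.5, 333.7 and 347.5 with dT, against 1150, 961.5 and 1202 in bulk (-1.68 ± 0.11, adjusted p = 0.000514). Kcnq1ot1, Xist, Meg3 and the long Neat1 transcript are all over 8000 bases, while the histone and small RNA genes named above are under 2000, and the part of length in their values was not tested.

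**Figure D5:**
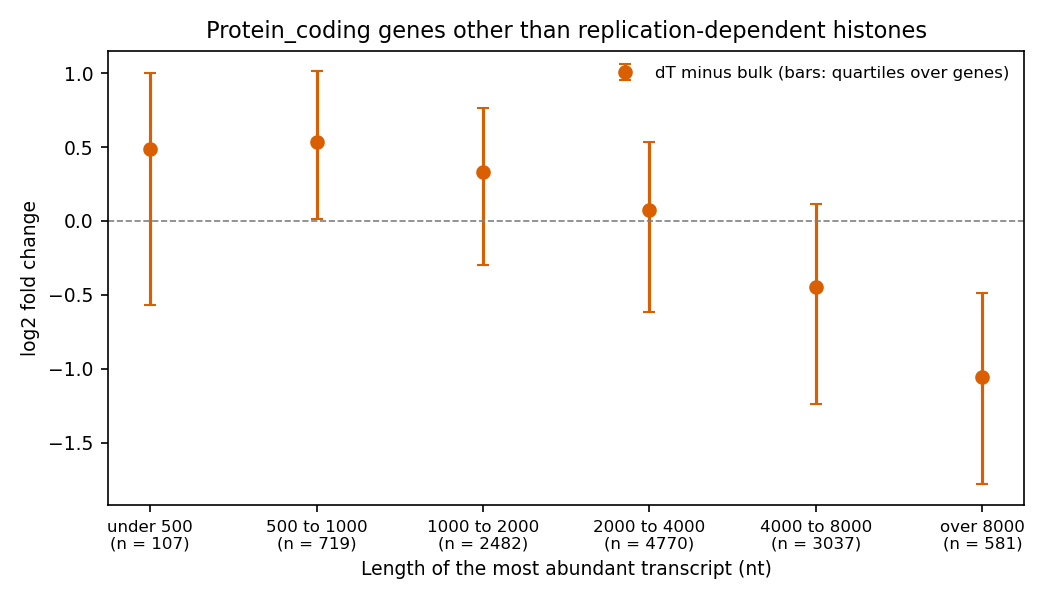
Median log2 fold change, dT minus bulk, of protein_coding genes other than replication-dependent histones, by the length of the most abundant transcript in bases. Points are medians, bars reach the quartiles over genes, n is the number of genes and the dashed line marks 0; the medians go from 0.49 under 500 bases to -1.06 over 8000.

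Groups of short polyadenylated mRNAs lay on the other side. Of 79 cytoplasmic ribosomal protein genes 58 were higher with dT (73.4%, against 6.9% over all genes) and 6 lower, with a median of 0.70, and many share words with pseudogenes. Among the 78 that passed in both groups 57 were higher, against 952 of 9131 over all genes that did. Without bulk replicates 1 or 3, 34 and 32 were higher. Rpl4 had 2823, 2916 and 2644 TMM-scaled CPM with dT, against 1569, 1446 and 1535 in bulk (0.88 ± 0.071, adjusted p = 0.00133). Of 81 nuclear genes of oxidative phosphorylation 35 were higher (43.2%, against the same 6.9%) and none lower with edgeR (2 lower at an unadjusted p under 0.05, 2 by DESeq2), with a median of 0.62. All 81 passed in both groups, so the 952 of 9131 is the closer comparison. Higher genes numbered 15 without bulk replicate 2, 8 without bulk replicate 1 and 6 without bulk replicate 3, and 19 with library totals alone. Cyc1, of complex III, averaged 227 ± 15 with dT and 84.1 ± 2.5 in bulk (1.43 ± 0.11, adjusted p = 0.000885). The 32 pluripotency genes, all passing in both groups, were split, with 9 higher and 9 lower (28.1% each way). Over all genes that passed in both groups, 952 of 9131 were higher and 539 lower. Pou5f1, the gene of Oct4, was lower, at 165.4, 227.5 and 164.3 with dT, against 464.3, 365.4 and 461.6 in bulk (-1.21 ± 0.18, adjusted p = 0.00968), and its transcript ends at a signal.
Pou5f1 poly(A) signal, chr17:35510742-35510771, plus strand: ttcttaAATAAAgactgggacacacagtag
Actb, which encodes beta-actin, had 1404, 1440 and 1239 with dT, against 1500, 1607 and 1452 in bulk (-0.16 ± 0.086, adjusted p = 0.290), and was lower and called with library totals alone (-0.42).

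Mitochondrial transcripts carry short tails added after processing, and mt-Nd6, encoded on the other strand, is known in human cells to lack a stable one. It was higher with dT, at 489.9, 469.4 and 601.8 TMM-scaled CPM, against 240.8, 217.3 and 243.3 in bulk (1.15 ± 0.12, adjusted p = 0.00391). Of 13 mitochondrial mRNA genes 9 were higher (69.2%, against 6.9% over all genes) and 3 lower (23.1%, against 11.9%). Among them mt-Nd2 changed by 1.72 ± 0.099 and mt-Nd1 by -0.57 ± 0.070 (adjusted p = 0.000389 and 0.00691). Relative to the random-primed libraries of the same input and kit, 7 of the 13 were lower with dT and 4 higher, with a median of -0.49. Near-identical copies of 5 of them stand on chromosome 1, and merged with these mt-Co2 changed by 0.54, mt-Atp6 by 0.97, mt-Co3 by 0.77 and mt-Nd3 by 0.74, while mt-Nd4l (-0.53, adjusted p = 0.0602) was not called. The mitochondrial rRNA mt-Rnr2 had 64503, 62259 and 67773 with dT, against 171, 167 and 135 in bulk, which had been depleted of rRNA, so this difference cannot be told apart from the depletion. Relative to undepleted random-primed libraries the same gene was lower with dT (-1.22, adjusted p = 2.82e-11).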

How the data were processed

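The authors deposited estimated counts per transcript, with GENCODE transcript and gene names per the file headers, for 18 libraries. The submitters' processing notes name bcl2fastq 2.16.0.10 and mm10; for the aligner, the quantifier and the strand, "not given in the sources used here" applies. Counts of 115125 entries, 92 ERCC entries left out, were summed to 47643 genes and rounded. A gene has the class of its transcript with the most counts. The gene test was that of edgeR 4.0.16 under R 4.3.3 (filterByExpr with a minimum count of 10, TMM, quasi-likelihood F test, two-sided, Benjamini-Hochberg over all tested genes) on the 6 libraries; CPM beside folds are TMM-scaled, SE is the fold change over the root of F. DESeq2 1.42.0, other scalings and filters, left-out libraries and merged copies were alternatives. Shared sequence is the share of 31-base words of vM21 transcripts found in other genes. Shares were compared by exact permutation. Code was tested on simulated data. Members, lists and tests were chosen with earlier results of these data known. Named genes come from a rule: extremes of each class and list, the most abundant, and fixed genes; Hist1h2ap, Hist1h2ao, uncalled histones, Tug1, Lncenc1, Tsix, Rnu12 and other uncalled or named list members outside it were chosen after their values were seen.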

Additional observations from a re-analysis of the deposited data

How the results depend on the processing

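The 3 dT libraries varied more than bulk, and counts of called genes moved with single libraries. Leaving out 1 library at a time, lower genes ranged from 119 (without bulk replicate 3) to 3425 and higher genes from 180 to 1664. By class the ranges of lower genes were 77 to 1895 for protein_coding, 5 to 430 for TEC, 3 to 222 for antisense, 7 to 222 for lincRNA, 1 to 129 for retained_intron and 2 to 71 for snoRNA, and higher protein_coding genes ranged from 126 to 1345. By list they were 23 to 57 for replication-dependent histones, 7 to 18 for small RNAs, 4 to 16 for long non-coding RNAs, 32 to 60 for ribosomal proteins (higher) and 6 to 41 for oxidative phosphorylation (higher). Genes not detected with dT ranged from 56 to 127. The cause of these moves was not tested. With library totals alone 614 genes were higher and 2196 lower, 440 of the higher ones in protein_coding and 19 in oxidative phosphorylation, so 78.1% of calls were lower, against 63.3% in the chosen scaling. DESeq2 called 2269 lower and 1513 higher, with 1241 higher in protein_coding. Without the filter 223 antisense, 213 lincRNA and 71 snoRNA genes were lower and 603 protein_coding genes higher. With all 18 libraries in 1 fit 146 TEC, 61 antisense and 34 retained_intron genes were lower, and 561 protein_coding and 20 oxidative phosphorylation genes higher.

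Libraries of the same number did not deviate together (correlations of -0.008, 0.010 and 0.010), so the numbers were not taken as pairs. With the replicate number as a block 342 genes were lower and 364 higher, with 251 and 282 in protein_coding; lower genes were 11 in TEC, 5 in antisense, 14 in lincRNA, 6 in retained_intron, 13 in snoRNA and 5 among the long non-coding RNAs, and 14 oxidative phosphorylation genes were higher. Among genes with under 10% shared words, a choice made after seeing the data, 593 were higher, 558 of them protein_coding; 70 antisense and 30 snoRNA genes were lower, as were 6 histone and 6 small RNA genes, and 6 ribosomal protein and 23 oxidative phosphorylation genes were higher.

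Shares, as dT minus bulk in percentage points, kept their sign without rRNA and mitochondrial genes (17.94 for protein_coding against 12.31, -1.55 for retained_intron against -1.74, -0.106 for antisense against -0.124), except processed_transcript, which turned from -0.0705 to 0.120; the cause was not tested. With 5 or 20 CPM in bulk as the minimum, 191 and 37 genes were not detected with dT. Named genes under settings other than a left-out library kept direction and side of the threshold in 865 cases, lost the call in 45, gained it in 18 and moved by more than the spread in 14. Precision is limited by the 3 libraries per group.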
